A study of Rattus norvegicus with 48 samples.

Results

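Serum of insulin-treated diabetic rats was compared with serum of placebo-treated diabetic rats, and the comparison used 9 of the 48 small RNA libraries of the series. All serum libraries labelled ZDF with the treatment Insulin (n = 4) or Placebo (n = 5) were taken, and each library is 1 rat. ZDF rats are Zucker diabetic fatty rats (ZDF fa/fa), which carry a homozygous leptin receptor mutation and develop type 2 diabetes. All 9 rats were male, entered the study at 11 weeks of age, had a surgical defect made in the femur and ate a high-fat, high-carbohydrate chow. The treated rats received insulin for 12 weeks, from 0.5 IU at the start to 13 IU at the end, the control rats received vehicle over the same 12 weeks, and serum was collected at the end. ZDF sera under PTH (parathyroid hormone, n = 5) or anti-sclerostin antibody (n = 4) and WT placebo sera (Zucker lean ZDF +/+ rats, n = 5) are given only beside the results. There was no WT insulin group, and insulin was not compared in lean rats. The rats had been part of earlier experiments, with insulin rats from 1 of the 2 that supplied placebo rats. The labels do not say which placebo rat came from which, and a part of the experiment in the results was not tested.

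MicroRNAs (miRNAs) are RNAs of about the length of the sequences printed below, which are cut from a hairpin precursor. They pair with target mRNAs mainly through the seed near their 5′ end and lower the output of those mRNAs. Cells release miRNAs into blood inside vesicles, on lipoproteins and bound to Argonaute proteins, so serum holds a mixture that red cells, platelets, leukocytes, endothelium, liver and other organs supply. Some miRNAs are nearly particular to one source, such as miR-451 in red cells and miR-122 in hepatocytes. In serum, release from more cells and release of more RNA from each cell cannot be told apart.

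The sequences below are those of some of the miRNAs called in the comparison, with the seed (bases 2 to 8 from the 5′ end) in capitals. The first 5 are called miRNAs that were higher under insulin and come from 2 genomic clusters. The following pair shares a seed and was lower relative to the other miRNAs of the serum. The others are single miRNAs with large changes on that relative scale.
rno-miR-451-5p: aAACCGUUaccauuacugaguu
rno-miR-144-3p: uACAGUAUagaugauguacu
rno-miR-25-3p: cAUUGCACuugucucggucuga
rno-miR-93-5p: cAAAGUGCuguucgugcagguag
rno-miR-106b-3p: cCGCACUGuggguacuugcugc
rno-miR-29a-3p: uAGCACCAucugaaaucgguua
rno-miR-29c-3p: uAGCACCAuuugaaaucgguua
rno-miR-31a-5p: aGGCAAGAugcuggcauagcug
rno-miR-192-5p: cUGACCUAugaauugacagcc
rno-miR-375-3p: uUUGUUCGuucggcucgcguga
rno-miR-27a-5p: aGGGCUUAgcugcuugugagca
Sequences and positions are from RefSeq, assembly GRCr8, in which 134 of the 151 miRNAs tested and 31 of the 40 called were matched by name. The 9 called miRNAs without a match were rno-miR-150-5p, rno-miR-150-3p, rno-miR-15a-5p, rno-miR-200a-3p, rno-miR-301a-3p, rno-miR-30b-5p, rno-miR-486, rno-miR-802-5p and rno-miR-99a-5p. The authors mapped their reads to an earlier rat assembly, and no coordinate of theirs was used.

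The libraries held 60344 to 113163 reads counted on miRNAs under insulin and 48637 to 124422 under placebo, and 436 of the 763 miRNAs listed had at least 1 read. Levels are given as CPM (counts-per-million of miRNA reads) after TMM normalization, so each value is relative to the other miRNAs of its serum. As a check of the tissue, the hepatocyte miRNA miR-122-5p lay between 53.8 and 1378 CPM, taken on library totals, in the 9 sera and at 12.2 or less in the 16 ulna bones of the series. The mesenchymal rno-miR-199a-5p lay at 38.5 to 535 in these sera and at 5787 to 20777 in bone, and the neuronal rno-miR-124-3p had no read in any of the 9 sera. A second mesenchymal miRNA, rno-miR-214-3p, overlapped between the tissues, at 70.7 to 884 in these sera and 174 to 4578 in bone. The neuronal rno-miR-9a-5p was present in some of these sera, at up to 48.2 CPM and 6 reads, and lay at 79.8 to 552 in bone.

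The 4 insulin sera stood apart from the 5 placebo sera in 2 library measures. The log2 ratio of rno-miR-451-5p to rno-miR-23a-3p, a common measure of red-cell lysis in serum, was 3.49, 3.18, 3.60 and 3.79 in insulin rats 1 to 4 and 1.20, 0.73, 1.41, 0.55 and −0.49 in placebo rats 1 to 5. Every insulin serum lay above every placebo serum, with a difference of 2.84 between the means (exact permutation p = 0.00794, the smallest that 4 rats against 5 allow, 0.0238 after Benjamini-Hochberg adjustment over 6 library measures). The ratio is not independent of the result for rno-miR-451-5p given below, since both rest on the same reads. The ratio reached 3.30 in WT placebo sera and 4.28 in ZDF sera under PTH, and was at most 1.60 in ZDF sera under anti-sclerostin. Reads of the synthetic controls that were added before RNA extraction numbered 141072, 123525, 299698 and 196754 in insulin rats 1 to 4 and 310939, 574298, 307319, 343069 and 479482 in placebo rats 1 to 5. They were fewer in every insulin serum (log2 difference −1.12, exact permutation p = 0.00794, adjusted 0.0238). The number of miRNA reads per control read was correspondingly higher under insulin, at 0.307 to 0.603 against 0.101 to 0.405 under placebo, a log2 difference of 1.24 (exact permutation p = 0.0397, adjusted 0.0794). The share of library reads counted on miRNAs was 1.02 to 1.62% under insulin and 0.687 to 1.57% under placebo, a log2 difference of 0.094 (exact permutation p = 0.675). The plot of library measures shows these values beside the other sera.

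**Figure D1:**
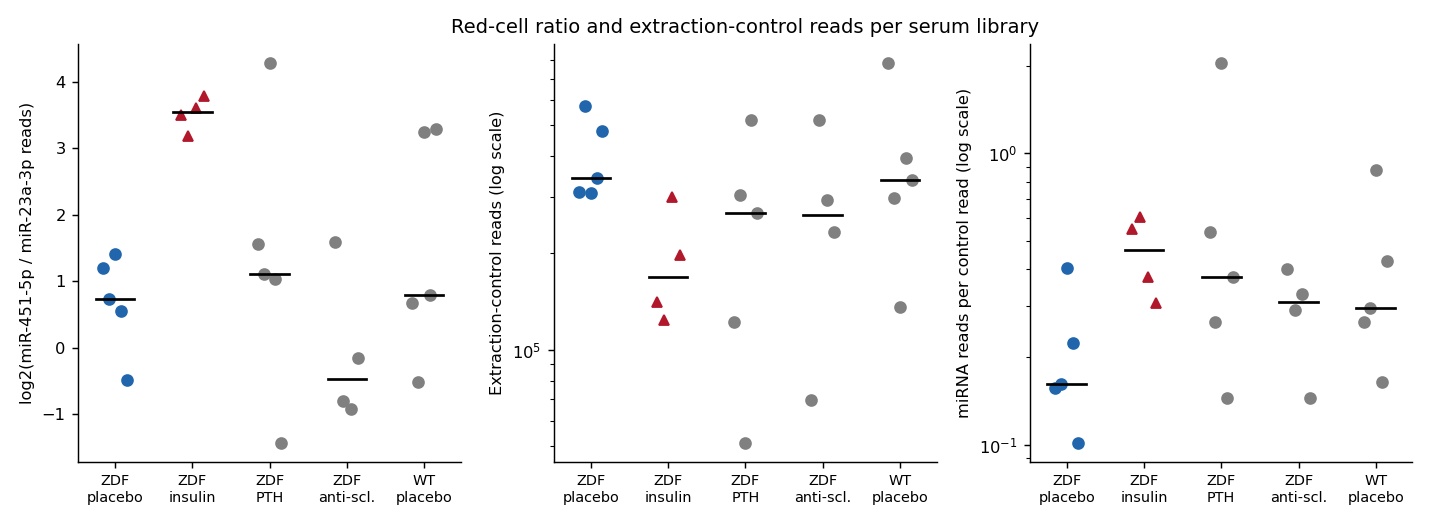
Left, reads of miR-451-5p over those of miR-23a-3p (log2); middle, extraction-control reads (log axis); right, miRNA reads per control read (log axis), with 1 point per serum library and a bar at each group's median. The 4 insulin sera (red triangles) lie above all 5 ZDF placebo sera (blue) in the ratio, between 3.18 and 3.79, and below them in control reads; sera of other groups (grey) reach the insulin sera in both.

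Of 151 miRNAs with enough reads to be tested, 40 differed between insulin and placebo at FDR < 0.2 (26.5%). FDR is the Benjamini-Hochberg adjusted p of edgeR's quasi-likelihood test over all 151, and 0.2 is the threshold of the study. A miRNA past it is named called in the following, and is said to have risen or fallen on the TMM scale. There were 17 higher (11.3%) and 23 lower (15.2%) under insulin, and at FDR < 0.05 there were 3, all higher. The groups did not overlap for 7 of the higher miRNAs (4.64% of those tested) and 5 of the lower ones (3.31%), and all 12 were called. Among the lower ones, rno-miR-31a-5p and rno-let-7d-3p passed the read filter only through the placebo sera, so that only a lower value was possible. The plot of levels by rat shows these 12. The median log2 fold change of all 151 was −0.10.

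**Figure D2:**
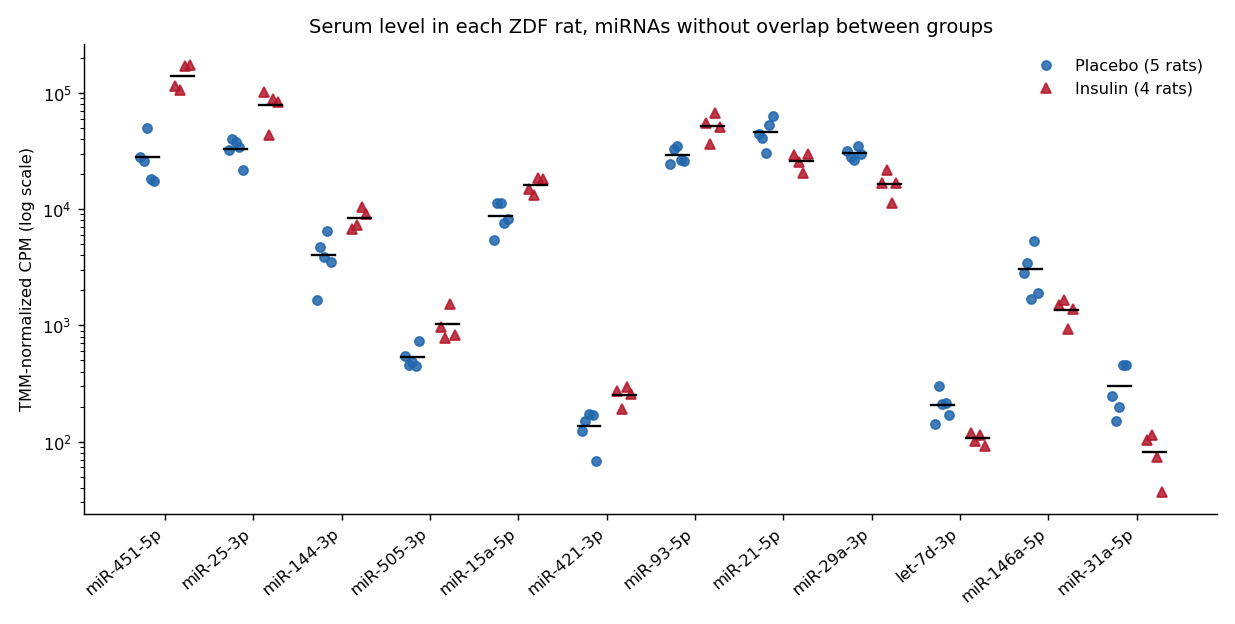
TMM-normalized CPM (log axis) of the 12 miRNAs whose groups do not overlap, in each placebo rat (blue circles, n = 5) and insulin rat (red triangles, n = 4), with black bars at the means. The 7 at the left were higher under insulin and the 5 at the right lower on this scale; miR-21-5p and miR-29a-3p among the latter had log2 fold changes of 0.15 and 0.088 when scaled to the extraction controls.

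Directions depend on the scaling. With the extraction controls in place of TMM, the median log2 fold change of the 151 moved up by 0.84, 22 miRNAs were called and all 22 were higher, 17 of them among the 40. None was lower, also at an unadjusted p under 0.05 in edgeR. All 17 miRNAs that rose on the TMM scale were also called on the control scale, while of the 23 that fell, 10 had a positive log2 fold change there and 13 a negative one, and none passed. With totals of miRNA reads the calls were 9 higher and 50 lower, with DESeq2's size factors in edgeR 20 and 17, in DESeq2 20 and 18, and with TMM computed without the red-cell miRNAs 20 and 16. The decreases below are therefore decreases relative to the other miRNAs of the serum.

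**Figure D3:**
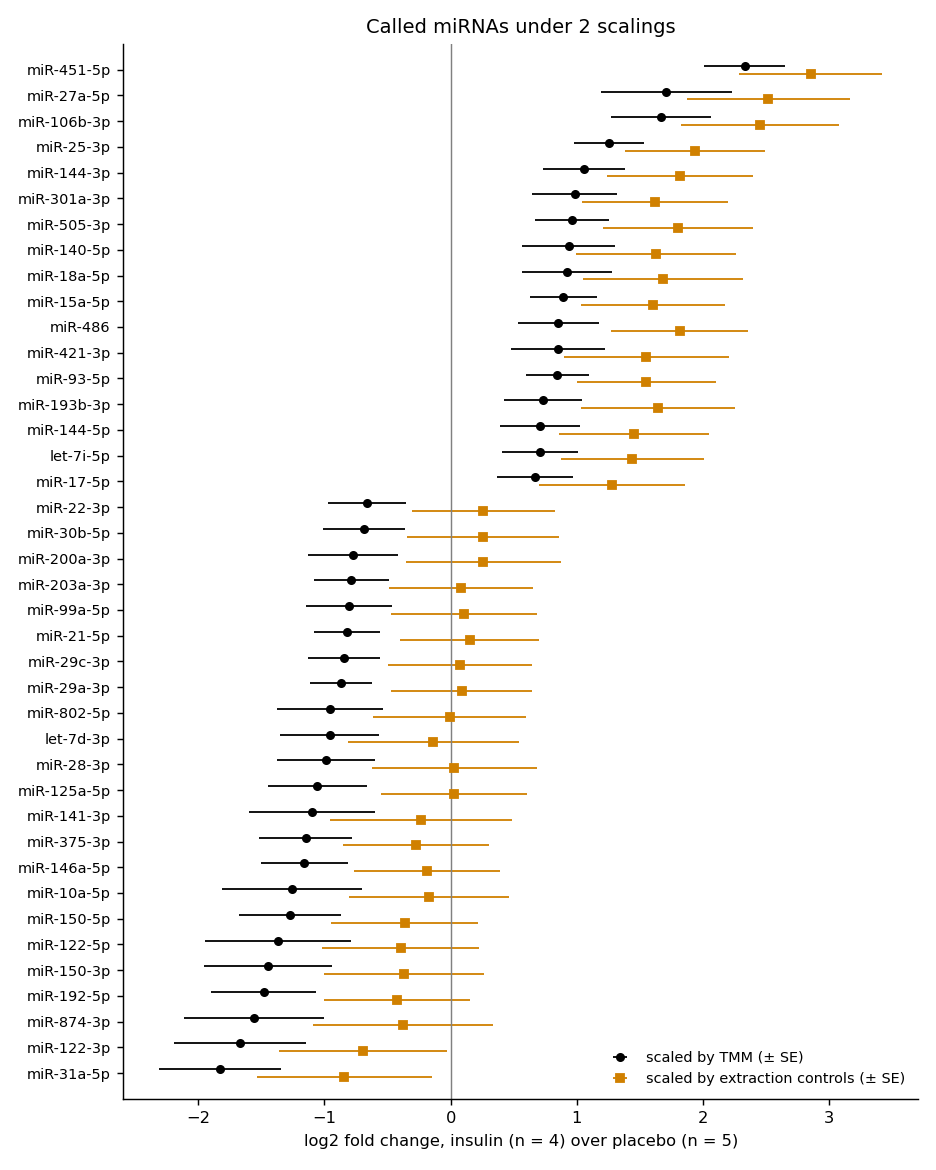
Log2 fold change (± SE) of the 40 called miRNAs between insulin (n = 4) and placebo (n = 5) sera, scaled by TMM (black) or by the extraction controls (orange). The 17 higher miRNAs lie above 0 on both scales, and the 23 lower ones lie below 0 by TMM but between −0.84 and 0.26 by the controls, 10 of them above 0.

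The red-cell miRNAs were higher under insulin, and all 4 tested of the 5 with a read were called, while 11.3% of all 151 rose. Rno-miR-451-5p, which matures through Argonaute 2 without Dicer and is the most erythroid of miRNAs, was at 114073, 106531, 169407 and 172771 CPM in insulin rats 1 to 4. In placebo rats 1 to 5 it was at 27952, 25995, 50254, 18240 and 17472 CPM. In CPM, the lowest insulin serum lay above the highest placebo serum by more than the whole spread of the placebo group. On the log2 scale that gap was smaller than the placebo spread. The log2 fold change was 2.33 (standard error 0.32, FDR 0.000315, exact permutation p = 0.00794). It made up 8.57 to 15.6% of all miRNA reads under insulin and 1.98 to 5.34% under placebo. Its passenger strand rno-miR-451-3p, with 1 to 4 reads in insulin sera and 0 to 2 in placebo sera, was too rare to test.

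Rno-miR-144-3p, which is transcribed together with miR-451, was at 6773, 7376, 10487 and 8997 CPM under insulin and at 1650, 4690, 3859, 6508 and 3508 CPM under placebo, again without overlap (log2 fold change 1.05, standard error 0.33, FDR 0.0646). The other arm of its hairpin, rno-miR-144-5p, rose by 0.71 on the log2 scale (FDR 0.165). Rno-miR-486, another abundant miRNA of red cells, was at 198953, 103237, 141843 and 116244 CPM under insulin. Placebo rats held 59011, 126969, 38964, 99100 and 63295 CPM, so the groups overlapped through placebo rat 2 (log2 fold change 0.85, standard error 0.32, FDR 0.120). Scaled to the extraction controls, rno-miR-451-5p was higher by 2.85 on the log2 scale (FDR 0.000101), and rno-miR-144-3p, rno-miR-486 and rno-miR-144-5p had 1.82, 1.82 and 1.45 (FDR 0.0451, 0.0270 and 0.154). The summed level of the list ran from 217653 to 322781 CPM under insulin and from 84580 to 158143 CPM under placebo. How far lysis of red cells during blood collection, with the ratio given above, contributed to these values was not tested.

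The miR-17-92 polycistron and its paralogs miR-106b-25 and miR-106a-363 encode miRNAs that hold back cell cycle brakes and promote proliferation, and they are abundant in blood cells. Of 14 tested, 5 rose and none passed in the other direction, with 3 negative and a list median of 0.56. Among all 151 miRNAs tested, 11.3% rose and 86 were negative. Rno-miR-25-3p was at 101640, 43849, 87936 and 83243 CPM in insulin rats 1 to 4 and at 32447, 40426, 37549, 33946 and 21759 CPM in placebo rats 1 to 5. Insulin rat 2 lay just above the highest placebo rat and the other insulin rats far above it (log2 fold change 1.25, standard error 0.28, FDR 0.0275, exact permutation p = 0.00794). Rno-miR-93-5p, from the same transcript, was at 55121, 36015, 67485 and 50976 CPM under insulin and at 24616, 33242, 35263, 26561 and 26047 CPM under placebo. It also separated the groups, again with insulin rat 2 closest to placebo (log2 fold change 0.85, standard error 0.25, FDR 0.0646). The third member of this cluster, rno-miR-106b-3p, was at 958, 254, 836 and 458 CPM under insulin and 158, 160, 189, 180 and 305 CPM under placebo, so placebo rat 5 overlapped with insulin rat 2 (log2 fold change 1.66, standard error 0.40, FDR 0.0342). It rested on 20 to 80 reads per insulin library and 9 to 25 per placebo library.

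From the miR-17-92 cluster itself, rno-miR-18a-5p rose by 0.93 on the log2 scale (FDR 0.124) and rno-miR-17-5p by 0.67 (FDR 0.165). Both groups overlapped, since placebo rat 3 held 265 CPM of rno-miR-18a-5p and 3708 CPM of rno-miR-17-5p, within the insulin ranges of 239 to 418 and 2963 to 3896. Reads of rno-miR-17-5p may come from either of 2 hairpins with the same mature sequence. Rno-miR-20a-5p (0.56, FDR 0.205) and rno-miR-92a-3p (0.33, FDR 0.446), which lie in the same cluster, did not pass.

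Other miRNAs that rose belonged to different families. Among all 151 miRNAs tested, 26.5% were called and 11.3% rose. Rno-miR-15a-5p, which targets Bcl2 and cyclins, was at 14845, 13353, 18571 and 18232 CPM under insulin and at 5390, 11191, 11305, 7589 and 8270 CPM under placebo, without overlap (log2 fold change 0.89, FDR 0.0646). It was the only called member of 6 tested in the miR-15/16 list (median 0.44), in which rno-miR-16-5p was at 0.48 on the log2 scale (FDR 0.217). Rno-miR-505-3p was at 975, 776, 1535 and 825 CPM against 544, 458, 484, 444 and 729 CPM (log2 fold change 0.96, FDR 0.0646), and rno-miR-421-3p at 191 to 292 against 67.8 to 174 CPM (0.85, FDR 0.165), both also without overlap. Groups overlapped for rno-miR-301a-3p (0.98, FDR 0.0815; 1 of 3 tested in the list of miR-130 and miR-301), rno-miR-140-5p (0.94, FDR 0.129), rno-miR-193b-3p (0.73, FDR 0.160) and rno-let-7i-5p (0.71, FDR 0.160).

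Rno-miR-27a-5p, the minor strand of a hairpin known from adipocytes, endothelium and osteoblasts, was at 924, 432, 313 and 202 CPM under insulin. In placebo sera it was at 228, 160, 212, 60.0 and 33.9 CPM, from 2 to 28 reads. Only insulin rat 4 lay within the placebo range, and the log2 fold change was 1.71 (standard error 0.52, FDR 0.0646, exact permutation p = 0.0476). Without insulin rat 1, which held the most, it was 1.21 and did not pass (FDR 0.204). It was the only one of 7 tested in the miR-23/27/24 list to be called, while 26.5% of all 151 were called. In this list 6 of the 7 had a negative log2 fold change (list median −0.13).

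The hepatocyte miRNAs were lower under insulin on the TMM scale, and all 3 tested fell (list median −1.37), while 15.2% of all 151 fell. Rno-miR-122-3p, the minor strand of the main liver miRNA, was at 85.5, 216, 73.1 and 128 CPM under insulin and at 351, 128, 477, 252 and 830 CPM under placebo. Placebo rat 2 lay at the level of insulin rat 4, and the other placebo rats lay above all insulin rats (log2 fold change −1.67, standard error 0.52, FDR 0.0646). The major strand rno-miR-122-5p was at 188, 496, 282 and 165 CPM under insulin and 790, 53.3, 742, 1021 and 1135 CPM under placebo, where placebo rat 2 held the lowest value of all 9 sera (log2 fold change −1.37, standard error 0.58, FDR 0.160, exact permutation p = 0.349). Rno-miR-802-5p, a liver miRNA that is raised in obesity and impairs insulin signalling, was at 325, 547, 324 and 348 CPM under insulin. Placebo rats held 913, 192, 779, 684 and 1220 CPM, and placebo rat 2 was again the lowest of all (log2 fold change −0.95, standard error 0.42, FDR 0.165, exact permutation p = 0.206). On the control scale the log2 fold changes of these 3 were −0.69, −0.40 and −0.0064, and none passed (FDR 0.512, 0.709 and 0.996).

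Rno-miR-192-5p, made by liver, gut and kidney epithelium, was at 4566, 5011, 1525 and 3298 CPM under insulin and at 12958, 9635, 4722, 17171 and 5728 CPM under placebo. Placebo rat 3 reached into the insulin range and the other placebo rats lay above it (log2 fold change −1.48, standard error 0.41, FDR 0.0646; −0.42 with FDR 0.664 on the control scale). Neither its other arm rno-miR-192-3p, with at most 6 reads in an insulin serum and 9 in a placebo serum, nor rno-miR-194-5p, with at most 2, was tested. Of the pancreatic list, rno-miR-375-3p, the main miRNA of islet beta cells and also of gut and pituitary endocrine cells, was at 1591, 1017, 961 and 2071 CPM under insulin. It was at 5320, 3880, 1831, 2894 and 1661 CPM under placebo, so that placebo rats 3 and 5 lay among the insulin rats (log2 fold change −1.15, standard error 0.37, FDR 0.0648; −0.27 with FDR 0.786 on the control scale). The second member tested in this list had a log2 fold change of −0.05, and rno-miR-7a-5p had at most 2 reads in a serum.

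Of 8 leukocyte miRNAs tested, 3 fell, none rose and 7 had a negative log2 fold change (list median −0.52). Among all 151 miRNAs tested, 15.2% fell and 86 were negative. Rno-miR-146a-5p, which is induced by NF-κB and restrains inflammatory signalling, was at 1488, 1666, 930 and 1374 CPM under insulin and at 2844, 3464, 1687, 5307 and 1915 CPM under placebo, without overlap but with insulin rat 2 and placebo rat 3 almost level (log2 fold change −1.16, standard error 0.34, FDR 0.0646). Rno-miR-150-5p, a miRNA of mature lymphocytes, was at 2531, 1730, 1285 and 2767 CPM against 4249, 6821, 2142, 9054 and 2711 CPM (log2 fold change −1.27, standard error 0.40, FDR 0.0646), with placebo rats 3 and 5 among the insulin rats. The other arm of its hairpin, rno-miR-150-3p, fell by 1.45 on the log2 scale (FDR 0.0953). The myeloid rno-miR-223-3p, at 13662 to 15597 CPM under insulin and 11729 to 22255 CPM under placebo, differed by −0.16 on the log2 scale (FDR 0.702). The pan-leukocyte rno-miR-142-5p (−0.27, FDR 0.657) and rno-miR-142-3p (−0.32, FDR 0.586) did not pass, nor did rno-miR-342-3p (−0.71, FDR 0.208) or rno-miR-146b-5p (0.53, FDR 0.446), and rno-miR-155-5p had at most 13 reads in a serum and was not tested. On the control scale the 3 that fell had log2 fold changes of −0.19, −0.36 and −0.37 and none passed.

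Of 7 mesenchymal miRNAs tested, 2 fell and 5 did not pass, while 15.2% of all 151 fell. All 7 had a negative log2 fold change, against 86 of all 151, and the list median was −0.71. Among those that did not pass were rno-miR-199a-5p (−0.71, FDR 0.420) and rno-miR-214-3p (−0.66, FDR 0.443). Rno-miR-31a-5p, which acts on osteoblast differentiation and is also made by smooth muscle and epithelia, had the most negative log2 fold change of all. It was at 103, 114, 73.1 and 36.6 CPM under insulin and at 246, 149, 197, 456 and 458 CPM under placebo, from 2 to 9 and 14 to 38 reads. No insulin rat reached the placebo range (log2 fold change −1.82, standard error 0.48, FDR 0.0616, exact permutation p = 0.0159), and on the control scale the value was −0.84 (FDR 0.459). No insulin serum reached the read minimum, so rno-miR-31a-5p entered the test only through the placebo sera. Its direction was thus fixed by the filter, and its test does not support a decrease. It had too few reads for the tests against the other sera. Rno-miR-10a-5p, encoded in a Hox cluster, fell by 1.26 on the log2 scale (FDR 0.165), where placebo rat 1 held 1405 CPM and the other placebo rats 227 to 468 CPM.

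The miR-29 family, which represses collagens and other matrix genes, had 2 of 3 members called, while 26.5% of all 151 miRNAs were called. Rno-miR-29a-3p was at 16692, 21555, 11197 and 16839 CPM under insulin and at 31955, 28137, 26478, 34798 and 29826 CPM under placebo. Each placebo rat was above each insulin rat (log2 fold change −0.87, standard error 0.25, FDR 0.0646, exact permutation p = 0.00794). Rno-miR-29c-3p, with the same seed, was at 3078, 6270, 4126 and 6120 CPM under insulin and 11167, 8398, 8793, 5992 and 9575 CPM under placebo (log2 fold change −0.84, FDR 0.0815), with placebo rat 4 inside the insulin range. The third member, rno-miR-29b-3p, did not pass (−0.55, FDR 0.417). Rno-miR-21-5p, a broadly expressed miRNA of stress and fibrosis, was at 29177, 25358, 20629 and 29611 CPM against 43929, 40650, 30564, 53194 and 62854 CPM, also without overlap (log2 fold change −0.82, standard error 0.26, FDR 0.0646). On the control scale, which moved all miRNAs up together, these 3 called miRNAs had log2 fold changes of 0.088, 0.074 and 0.15, within their standard errors of 0.559, 0.572 and 0.552, so that no direction was measured there.

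Further called miRNAs that were lower on the TMM scale came from epithelial and other families. Among all 151 miRNAs tested, 15.2% fell and 86 were negative. In the epithelial list, 3 of 5 tested fell (median −0.77), namely rno-miR-141-3p (−1.10, FDR 0.172), rno-miR-203a-3p (−0.79, FDR 0.120) and rno-miR-200a-3p (−0.77, FDR 0.188). In the list of miR-99, miR-100 and miR-125, 2 of 5 fell, rno-miR-125a-5p (−1.05, FDR 0.116) and rno-miR-99a-5p (−0.81, FDR 0.160), and all 5 were negative (median −0.81). The remaining lower miRNAs were rno-miR-874-3p (−1.55, FDR 0.0965, from 2 to 10 and 9 to 33 reads), rno-miR-28-3p (−0.99, FDR 0.127), rno-miR-22-3p (−0.66, FDR 0.188), rno-let-7d-3p (−0.96, FDR 0.146, without overlap) and rno-miR-30b-5p (−0.69, FDR 0.188, the only one called of 7 in its list). Of these 10, 7 had a positive log2 fold change on the control scale, between 0.027 and 0.26, and rno-miR-141-3p, rno-miR-874-3p and rno-let-7d-3p kept a negative one, at −0.24, −0.38 and −0.14. Like rno-miR-31a-5p, rno-let-7d-3p passed the read filter only through the placebo sera, which fixed its direction.

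Several lists held no called miRNA, and their medians lay on both sides of that of all miRNAs tested. The median was −0.81 for 3 smooth muscle miRNAs (miR-143 and miR-145), 0.03 for 4 endothelial ones, 0.23 for 2 of the miR-26 family, 0.12 for 3 of miR-148 and miR-152 and 0.21 for 2 of miR-103 and miR-107, which are known for their action on insulin sensitivity. Single tested members had a log2 fold change of −0.26 in the striated muscle list and 0.15 in the neuronal list. The let-7 list had 1 of 11 called in each direction (median 0.28; members differ by few bases and may share reads), and the miR-30 list a median of −0.18. Among all 151 miRNAs tested, 11.3% rose and 15.2% fell. The plot of lists shows each member.

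**Figure D4:**
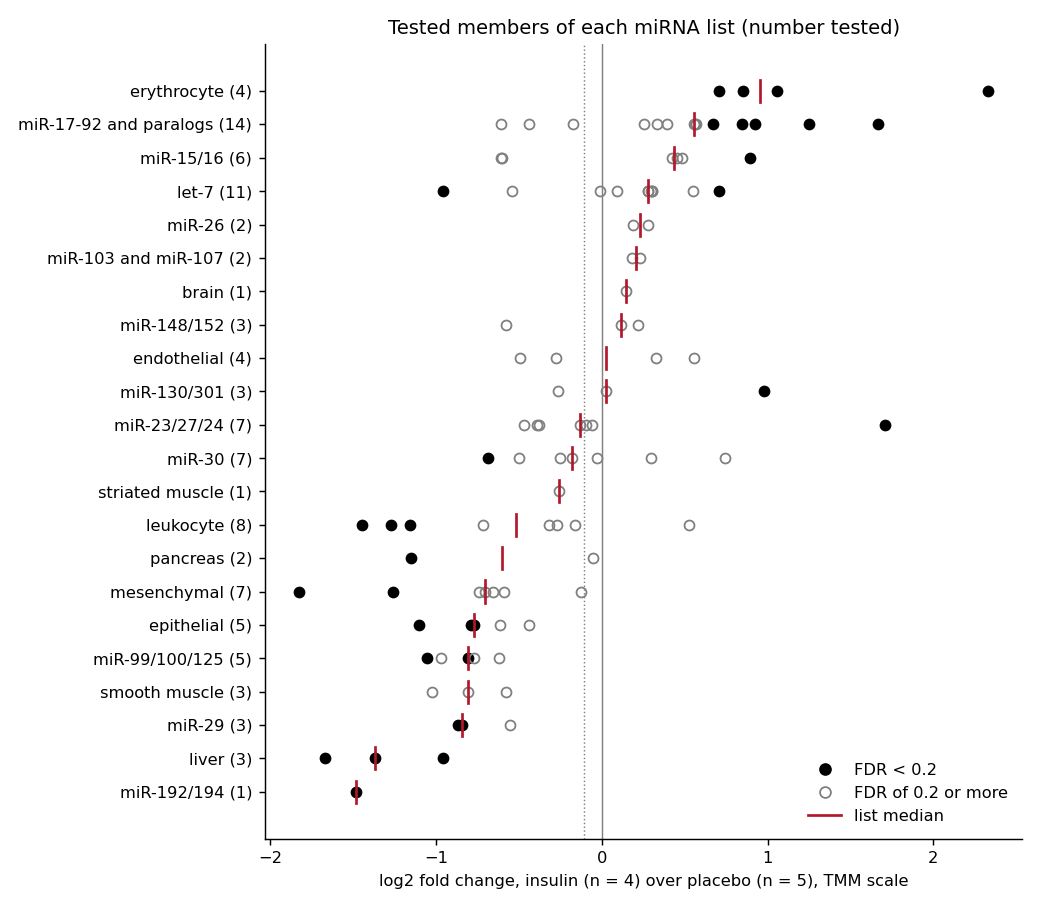
Log2 fold change (insulin n = 4 over placebo n = 5, TMM scale) of each tested member of 22 miRNA lists, sorted by list median (red bars); filled points are called and the dotted line is the median of all 151 miRNAs, −0.10. Among lists with 3 or more tested members, the red-cell list lies wholly above 0 and the liver, miR-29, smooth muscle, miR-99 with miR-100 and miR-125, epithelial and mesenchymal lists wholly below it; scaled to the extraction controls, the called members of the miR-29 and miR-99 lists and 2 of the 3 called epithelial ones had log2 fold changes of 0.027 to 0.26, none of which passed.

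The called miRNAs were grouped by position and seed, which the comparison did not use. Rno-miR-451-5p (chr10:63459585-63459606, plus strand) and rno-miR-144-3p (chr10:63459446-63459465) lie on 2 neighbouring hairpins outside any other annotated gene, and all 3 tested miRNAs of the pair were called. Rno-miR-25-3p (chr12:22156652-22156673), rno-miR-93-5p (chr12:22156894-22156916) and rno-miR-106b-3p (chr12:22157062-22157083), all on the minus strand, lie within the protein-coding gene Mcm7, a component of the replicative helicase, and 3 of the 6 tested miRNAs from these hairpins were called. The gene table gives no strand and no exons, so intron or exon was not read from it. Among all 151 miRNAs tested, 26.5% were called, 11.3% higher and 15.2% lower. Of 13 genomic groups of hairpins with gaps of at most 10 kb that held a called miRNA, 3 held 2 or more, and in these 3 all called miRNAs were higher. The 13 groups were picked for holding a called miRNA, and the single calls of the other groups lay in both directions. Whether neighbours moved together more often than other miRNAs was not tested. Among 29 seeds of the called miRNAs, 2 were shared by called miRNAs, AAAGUGC of rno-miR-17-5p and rno-miR-93-5p (2 of 4 tested, all 4 positive) and AGCACCA of rno-miR-29a-3p and rno-miR-29c-3p (2 of 3 tested, all 3 negative on the TMM scale with the called 2 within their standard errors of 0 on the control scale). Rno-miR-25-3p shares AUUGCAC with rno-miR-92a-3p, rno-miR-92b-3p and rno-miR-363-3p, whose log2 fold changes were 0.33, −0.44 and −0.17, so that seed did not move as a group. The median GC content of the mature sequences was 46.6% in the 14 higher, 45.5% in the 17 lower and 45.5% in the 103 other tested miRNAs with a sequence.

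Both arms of a hairpin were tested for 10 hairpins with a called arm, and both were called for 2 of them, those of miR-144 and miR-122. In others the arms differed. Rno-miR-93-3p was at −0.61 on the log2 scale (FDR 0.526), against 0.85 for the called rno-miR-93-5p. Rno-let-7d-5p was at 0.55 (FDR 0.673), against −0.96 for the called rno-let-7d-3p. Rno-miR-27a-3p, at 4727 to 7999 CPM under insulin and 5144 to 9368 CPM under placebo, differed by −0.09 on the log2 scale (FDR 0.842) while its other arm rose by 1.71. Counted over both arms in each rat, the minor arm rno-miR-27a-5p left 87.4 to 95.9% of the reads to rno-miR-27a-3p under insulin and 95.8 to 99.5% under placebo, a share that needs no scaling between libraries, and the ranges overlapped. The other arm of miR-106b, rno-miR-106b-5p, was at 0.25 on the log2 scale (FDR 0.673), and the 3p arm made up 38.5 to 84.8% of the reads of its hairpin under insulin and 34.9 to 62.1% under placebo. Likewise, rno-miR-140-3p, at 25299 ± 5122 CPM (SD, n = 4) and 25457 ± 4873 CPM (SD, n = 5), had a log2 fold change of −0.01, while rno-miR-140-5p rose. For none of the 10 hairpins did the arm shares separate the groups, and the shares were not tested.

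Of 4 further serum miRNAs that the study followed in ZDF rats, 3 could be tested. Rno-miR-199a-3p was at 51.3, 242, 73.1 and 91.6 CPM under insulin and 334, 107, 204, 192 and 153 CPM under placebo, with overlapping groups (log2 fold change −0.74, standard error 0.50, FDR 0.384). The groups also overlapped for rno-miR-100-5p, where the log2 difference was −0.62 (standard error 0.35, FDR 0.272), and for rno-miR-320-3p, at −0.14 (standard error 0.27, FDR 0.755). Rno-miR-218a-5p was below the read minimum, with 1 to 8 reads in insulin sera and 1 to 11 in placebo sera.

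Among the 285 miRNAs with too few reads to test, 4 had reads that did not overlap between the groups. Placebo rats 1 to 5 had 6, 7, 9, 11 and 16 reads of rno-miR-1247-5p, insulin rat 1 had 1 and the other insulin rats none. The other 3, rno-miR-200b-3p, rno-miR-328b-3p and rno-miR-34b-3p, had no read in any insulin serum and at least 1 in every placebo serum, with highest counts of 3, 4 and 2, too close to the limit of 3 counts that a count of 0 allows for a fold change. All 4 were lower under insulin.

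The insulin sera were also set against the other sera, with the same 4 rats in each comparison, so that these comparisons and the one above are not independent. Against ZDF sera under anti-sclerostin 41 of 141 miRNAs were called (29.1%; 18 higher, 23 lower), against ZDF sera under PTH 10 of 151 (6.62%; 6 higher, 4 lower), and against WT placebo sera 30 of 154 (19.5%; 12 higher, 18 lower). Rno-miR-451-5p was higher by 3.03 on the log2 scale than under anti-sclerostin (FDR 0.00767), by 1.94 than under PTH (FDR 0.140) and by 1.23 than in WT placebo sera (FDR 0.177). For rno-miR-93-5p these values were 1.06, 1.01 and 1.13 (FDR 0.134, 0.146 and 0.0564), and for rno-miR-25-3p 1.23, 0.83 and 1.24 (FDR 0.250, 0.328 and 0.0564). Rno-miR-29a-3p had −1.40, −1.02 and −0.93 (FDR 0.0683, 0.146 and 0.0875) and rno-miR-146a-5p −0.74, −1.27 and −1.13 (FDR 0.170, 0.140 and 0.0748). Of these 5, rno-miR-25-3p passed the threshold against WT placebo and missed it against the other two groups.

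For the miRNAs of liver and endocrine cells the values were the following. Against WT placebo sera, insulin-treated ZDF sera held more rno-miR-802-5p (log2 fold change 1.84, standard error 0.46, FDR 0.0464) and rno-miR-375-3p (1.25, standard error 0.54, FDR 0.169), while rno-miR-122-5p (0.64, FDR 0.445) and rno-miR-192-5p (0.32, standard error 0.46, FDR 0.802) did not pass. Against PTH the differences on the log2 scale were −0.50 for rno-miR-802-5p (FDR 0.714), −0.85 for rno-miR-375-3p (FDR 0.361), −1.30 for rno-miR-122-5p and −1.10 for rno-miR-192-5p (FDR 0.233 each). Against anti-sclerostin 3 of these 4 were lower under insulin, rno-miR-122-5p (−1.66, FDR 0.174), rno-miR-192-5p (−1.49, FDR 0.143) and rno-miR-375-3p (−0.98, FDR 0.156), and rno-miR-802-5p did not pass (−0.58, FDR 0.578). Rno-miR-122-3p had too few reads for the tests against WT placebo and anti-sclerostin, and did not pass against PTH (−0.98, FDR 0.279). Rno-miR-27a-5p differed from anti-sclerostin by 1.69 (FDR 0.0942), from PTH by 0.03 (FDR 0.989) and from WT placebo by −0.04 (standard error 0.45, FDR 0.989). Rno-miR-150-5p lay below WT placebo by 1.43 on the log2 scale (FDR 0.0564), with a log2 fold change of −0.09 against anti-sclerostin (FDR 0.949).

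Single rats decided many of the calls. Leaving out each of the 9 rats in turn gave between 4 called miRNAs (without insulin rat 3, all 4 higher) and 59 (without placebo rat 3). The count was 22 without insulin rat 1, 25 without insulin rat 4, 21 without placebo rat 1 and 20 without placebo rat 5. Of the 40 called miRNAs, rno-miR-451-5p, rno-miR-25-3p and rno-miR-106b-3p passed in all 9 of these fits, and no lower miRNA did. Without insulin rat 3 the fourth call was rno-miR-27a-5p, while rno-miR-31a-5p, rno-miR-29a-3p, rno-miR-93-5p and rno-miR-192-5p, with log2 fold changes of −1.71, −0.67, 0.73 and −1.18, were no longer called (FDR 0.230, 0.265, 0.262 and 0.262). Of the liver miRNAs, rno-miR-122-3p was not called in 1 of the 9 fits, rno-miR-802-5p in 5 and rno-miR-122-5p in 6. Rno-miR-421-3p and rno-let-7d-3p, whose groups did not overlap, were each called in 3 of the 9 fits. Leaving out placebo rat 1 moved rno-miR-10a-5p to −0.51 and rno-miR-99a-5p to −0.53, leaving out placebo rat 5 moved rno-miR-22-3p to −0.36, and none of these 3 passed then, while rno-miR-30b-5p reached −1.06 without insulin rat 2. No named miRNA past the threshold changed sign when a rat was left out. The exact permutation p over single miRNAs, adjusted over all 151, was 0.20 at the lowest. The plot of calls by setting shows these counts.

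**Figure D5:**
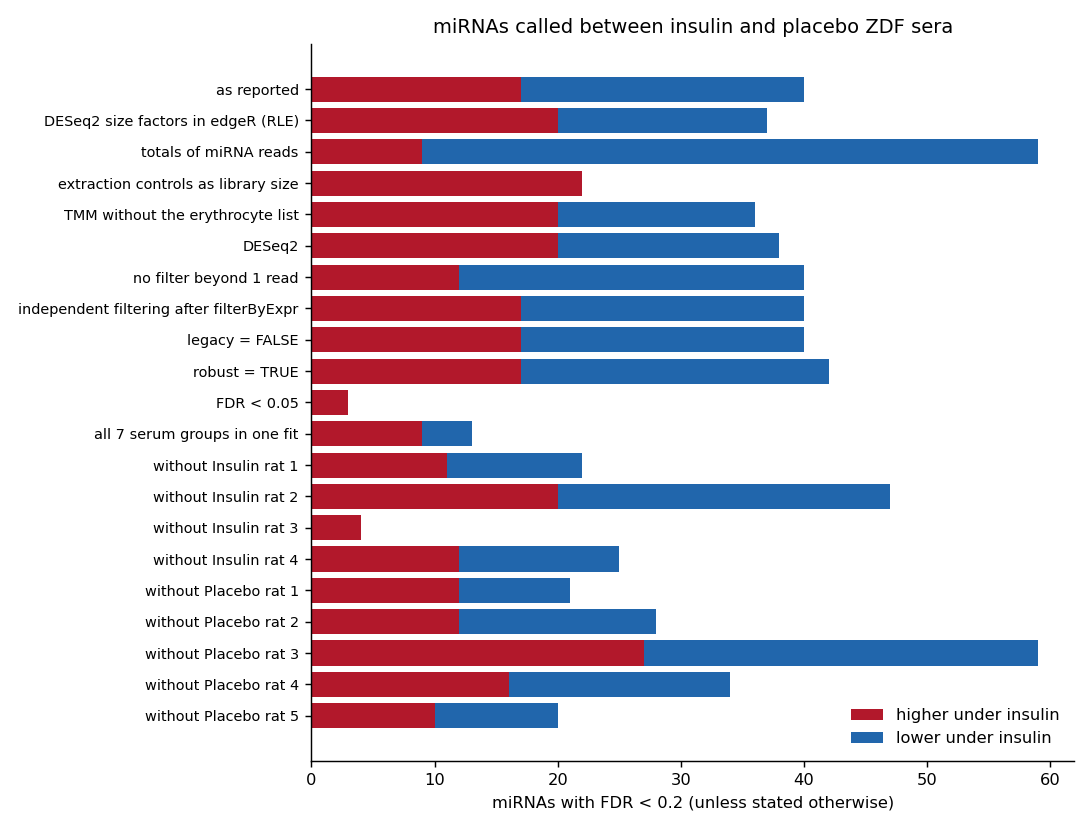
Number of miRNAs called between insulin and placebo ZDF sera, higher (red) and lower (blue) under insulin, as reported at the top and under each alternative below it. The count is 40 as reported, 22 and all higher when scaled to the extraction controls, and 4 to 59 when a single rat is left out.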

How the data were processed

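Small RNA libraries of 9 ZDF sera (4 insulin, 5 placebo) were compared, 1 rat per library. For each library the authors deposited whole-number read counts for 763 rat miRNAs and 10 synthetic controls, of which 3 were added before extraction. Per the labels and the study's methods, reads were trimmed with cutadapt, reads under 17 nt were dropped, and the rest were mapped (Bowtie, miRDeep2) with up to 2 mismatches to the rat genome and then with 1 to miRBase. Since 1 mismatch was allowed, members of a family (let-7, miR-29, miR-17/93/106) can share reads, and rno-let-7a-1-3p and rno-let-7c-2-3p carried identical values. The authors also deposited RPM per library, used only to recover library totals, and a second per-million score relative to miRNA reads, which was not used.

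Counts were tested with edgeR 4.0.16 (R 4.3.3): filterByExpr with a minimum count of 10, TMM normalization, the quasi-likelihood F-test between the groups compared, Benjamini-Hochberg adjustment over all miRNAs passing the filter, and a threshold of FDR < 0.2. Exact two-sided permutation tests used log2(CPM + 1). A test on all miRNAs with 1 read or more, as in earlier work on these data, is an alternative. The script was tested on simulated data. Other scalings, DESeq2 1.42.0, filters, a fit of all 7 serum groups and leaving out each rat were tried. No pair of libraries of one group differed by less than sampling noise (16 pairs, lowest chi-square per degree of freedom 12.7). Reads carry no molecular identifiers, so count limits cover counting error only.

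Named miRNAs were the 10 largest increases and 10 largest decreases among those called, the miRNAs that the study followed in insulin-treated rats, members of 22 lists (in full for red cells, liver, miR-192 and miR-194, pancreas and leukocytes, otherwise up to 4 called examples), and up to 5 untested ones without overlap. The remaining called miRNAs, and other arms and seed partners of called ones, were named after their values were seen, as were the uncalled mesenchymal miRNAs given with a fold change. Members and lists were chosen with earlier results of these data known. Rat numbers follow accession order and only name a library.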

Additional observations from a re-analysis of the deposited data

Results flagged for a closer look

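In 7 of 110 groups of values, 1 serum lay apart from the others of its group by Dixon's test, which marks about 1 in 20 groups by chance. Values are log2(CPM + 1) unless stated. Placebo rat 2 was low in rno-miR-122-5p, at 5.76 against 9.54 to 10.15 in the other placebo rats. Placebo rat 5 was high in rno-miR-106b-3p, at 8.26 against 7.31 to 7.57, and low in rno-miR-142-3p, at 8.41 against 8.88 to 9.03. Placebo rat 3 was low in rno-miR-28-3p, at 7.25 against 8.41 to 8.66. Insulin rat 2 was high in rno-miR-30b-5p, at 9.62 against 8.37 to 8.52, and in the liver miRNA rno-miR-802-5p, at 9.10 against 8.34 to 8.45. Insulin rat 1 had 1.62% of its library reads on miRNAs, against 1.02 to 1.11% in the other insulin rats.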

How the results depend on the processing

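Against the 40 miRNAs called between insulin and placebo, 22 were called with the extraction controls as scale, 13 with all 7 serum groups in one fit (9 higher, 4 lower) and 3 at FDR < 0.05. Leaving out each rat gave 4 to 59. Without the read filter there were 12 higher and 28 lower among 436 tested, and splits under other scalings stand in the report. With the extraction controls, which moved the median of all miRNAs by 0.84, these called miRNAs had positive values inside their standard errors (0.552 to 0.654): rno-miR-200a-3p 0.26, rno-miR-22-3p 0.26, rno-miR-30b-5p 0.26, rno-miR-21-5p 0.15, rno-miR-99a-5p 0.11, rno-miR-29a-3p 0.088, rno-miR-203a-3p 0.080, rno-miR-29c-3p 0.074, rno-miR-28-3p 0.030 and rno-miR-125a-5p 0.027. The cause was not tested. Leaving out each rat gave 1 to 52 calls against anti-sclerostin (1 without insulin rat 1 or 3), 0 to 27 against PTH (0 by edgeR without insulin rat 3, insulin rat 4 or PTH rat 1, with 9, 15 and 18 at an unadjusted p under 0.05) and 2 to 44 against WT placebo (2 without insulin rat 3, 8 without insulin rat 1). The log2 difference in the miRNA share ran from −0.082 to 0.216, and the ratio of rno-miR-451-5p to rno-miR-23a-3p kept its call under its 10 alternatives. No paired analysis was possible because the labels give no replicate numbers shared between groups. Depth of 48637 to 124422 miRNA reads left 285 miRNAs with a read untested.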
